A study of Mus musculus with 7 samples.

Results

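The genes described here encode 7 transcription factors that steer the fate of effector CD8 T cells: Tbx21, Eomes, Prdm1, Zeb2, Zeb1, Bhlhe40 and Zfp683. They were chosen by name, and all 7 were found in the RefSeq gene table of build GRCm38.p6, which holds 21887 protein-coding genes. Zfp683 is entered there as a pseudogene. Each gene was described by the peak intervals that touch its body or 10 kb on either side. These windows held 31 of the 38231 regions marked in all 6 libraries together, where a region is made of overlapping intervals of any libraries.

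Binding of LEF1 and TCF1 was mapped by CUT&RUN, in which an antibody guides a nuclease to cut DNA around the protein. The 3 LEF1 and the 3 TCF1 libraries came from spleen cells of wild-type mice whose T cells carry the transgenic P14 receptor, which recognises a viral peptide. The cells were sorted as CD8+, Ly5.1+, CD44- and CD62L+, that is, as naive cells, and fixed, and the labels give neither the age of the animals nor whether replicates were separate animals. What a p-value measures here is thus only how the libraries scatter, and part of that may be technical. An input control labelled in the series was sorted as CD8+, Ly5.1- and CD44+ and was not analysed here.

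Naive CD8 T cells that meet antigen divide and become short-lived effector cells or longer-lived memory cells. T-bet (gene Tbx21), Blimp-1 (Prdm1) and ZEB2 are known to drive terminal effector differentiation, whereas ZEB1 is known to favour memory. Eomesodermin (Eomes) is linked to both cytotoxic function and memory, and Hobit (Zfp683) and Bhlhe40 to memory cells resident in tissues. LEF1 and TCF1, HMG-box proteins of the Wnt pathway, are known to maintain naive and stem-like T cells.

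The lists differed in length, and LEF1 had 27666, 37646 and 23704 intervals (replicates 1, 2 and 3) and TCF1 had 25623, 22901 and 11423. TCF1 replicate 3 stood apart with the shortest list, so values are also given without it or with the 11423 strongest peaks of each library by q (equal list sizes). All 8 genes fixed as markers of CD8 T cells, such as Cd8a and Cd3e, had an interval in all 6 libraries, with 38 to 74 intervals per library over the list. Of the marker genes of other spleen cells, 2 of 6 for B cells (3 to 10 intervals per library), 2 of 6 for myeloid cells (3 to 6), 0 of 3 for NK cells (0 to 1) and 2 of 4 for erythroid cells (3 to 6) had one in all 6. Intervals near a gene do not measure its expression, and the part of other cells in the results was not tested.

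The sequences before the gene starts are shown for 3 of the genes, because the lists differ there: intervals covered the start of Prdm1 and not those of Tbx21 and Eomes. Each line gives the 250 bases upstream of the RefSeq start, 5′ to 3′ on the gene's strand, and capitals mark the E-box CACCTG or its reverse complement CAGGTG, which ZEB proteins are known to bind.
Prdm1 (chr10:44458749-44458998, minus strand): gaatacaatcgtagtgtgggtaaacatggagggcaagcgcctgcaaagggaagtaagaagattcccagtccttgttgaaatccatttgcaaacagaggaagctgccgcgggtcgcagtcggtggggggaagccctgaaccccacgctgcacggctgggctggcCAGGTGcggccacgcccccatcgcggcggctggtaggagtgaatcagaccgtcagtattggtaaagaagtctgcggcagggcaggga
Tbx21 (chr11:97115332-97115581, minus strand): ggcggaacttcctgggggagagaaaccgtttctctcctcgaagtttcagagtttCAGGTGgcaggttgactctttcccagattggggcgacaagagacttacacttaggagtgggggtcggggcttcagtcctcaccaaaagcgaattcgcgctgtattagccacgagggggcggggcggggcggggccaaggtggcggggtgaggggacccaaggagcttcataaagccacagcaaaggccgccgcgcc
Eomes (chr9:118477939-118478188, plus strand): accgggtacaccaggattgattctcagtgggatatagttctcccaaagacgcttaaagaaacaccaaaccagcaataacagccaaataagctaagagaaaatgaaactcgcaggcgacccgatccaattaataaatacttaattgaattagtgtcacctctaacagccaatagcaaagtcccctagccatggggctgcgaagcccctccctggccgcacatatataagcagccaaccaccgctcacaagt

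Start sequences were at hand for 4 of the 7 genes, the fourth being Zeb2 with 4 starts. Some of the Zeb2 windows overlap each other, so the windows are not all separate sequences. None of these 7 upstream windows held CTTTGA or TCAAAG, a core that LEF1 and TCF1 are known to bind, on either strand. That core was in 13.8% of all 32851 upstream windows of the same length, and other forms of it were not searched for. The T-box core AGGTGT (or ACACCT), bound by T-bet and Eomesodermin, was also in none of the 7 windows, against 11.8% of all. The E-box was in 1 window each of Prdm1 and Tbx21, against 17.2% of all. These matches describe letters in a window and not binding.

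All 7 genes had intervals of both factors in at least 2 of the 3 libraries of each factor, which held for 48.6% of protein-coding genes. Only Prdm1 and Zeb1 had an interval in all 6 libraries, against 33.9% of protein-coding genes. Over the 7 genes the LEF1 libraries held 23, 29 and 20 intervals and the TCF1 libraries 24, 22 and 6. LEF1 libraries averaged 24.0 ± 4.58 and TCF1 libraries 17.3 ± 9.87 intervals (SD, n = 3), so the difference of 6.67 was smaller than the spread of the TCF1 libraries. Without TCF1 replicate 3 the difference was 1.0.

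**Figure D1:**
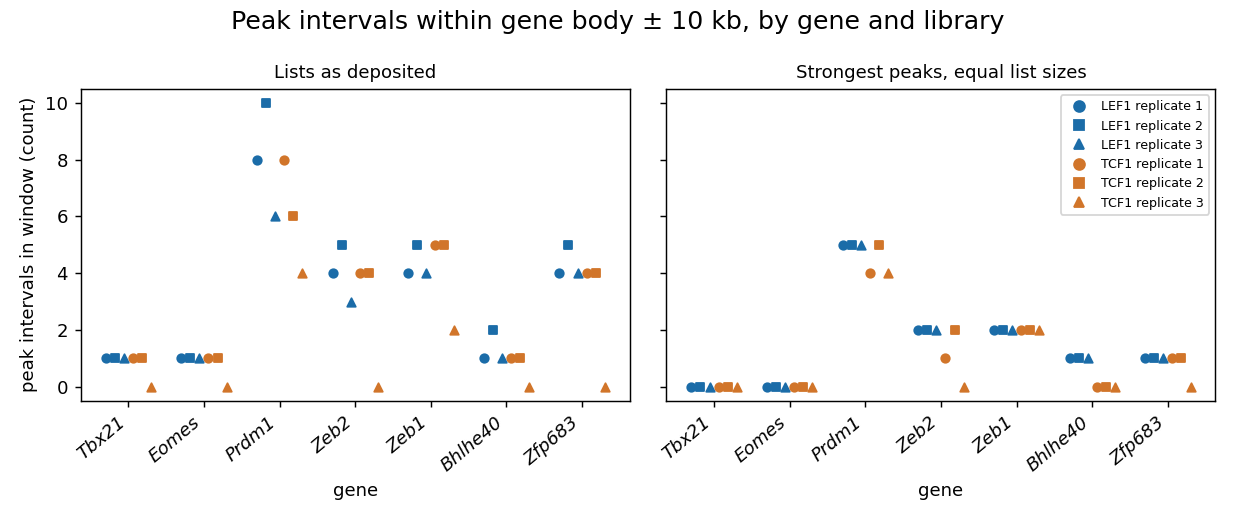
Number of peak intervals touching each gene or 10 kb on either side (vertical axis) for each gene (horizontal axis), with 1 point per library. The left panel uses the lists as deposited and the right panel the 11423 strongest peaks of each library. Prdm1 has the most intervals, 4 to 10, and TCF1 replicate 3 has none at 5 of the genes.

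In the lists as deposited no member separated the factors. In 0 of the 7 genes did every LEF1 library exceed every TCF1 library or the reverse, where 6.1% and 0.0461% of the 13009 protein-coding genes with an interval did so. Over all genes this direction turned with the scaling: with equal list sizes LEF1 was above at 2.6% and TCF1 at 6.01% of the 8764 genes then having an interval, and per 10000 intervals listed in a library at 3.38% and 4.87% of the 13009. For the counts of single genes the exact permutation test (two-sided) gave p between 0.5 and 1.0, and 3 against 3 libraries allow no p below 0.1. Adjusted over all 13010 genes tested (Benjamini-Hochberg over the exact permutation p-values), every p was 1.0, and 0 genes had an unadjusted p under 0.05. The median difference over the 7 genes was 0.667 intervals, LEF1 minus TCF1, against 0.333 over the 13009 protein-coding genes with an interval in any library.

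The related T-box genes come first. Tbx21 (chromosome 11, 97098007 to 97115331, 17.3 kb) held 1 interval in each LEF1 library, 1 in TCF1 replicates 1 and 2 and 0 in TCF1 replicate 3. They formed a single region, 97096171 to 97096537, outside the gene, 1.47 kb past its lower-coordinate end, which is the downstream end since the gene lies on the minus strand. The authors' fold enrichment there was 8.74, 11.4 and 8.63 in the LEF1 libraries and 8.62 and 6.41 in TCF1 replicates 1 and 2. The highest value was that of LEF1 replicate 2, the longest list, and the lowest that of TCF1 replicate 2, while the other libraries lay close together. Ranked by fold enrichment within each list, the region stood at percentiles of 50.2 to 82.4, where low percentiles are the strongest peaks, so it was of middle to low strength in all 5. No library had an interval over the Tbx21 start, 18.8 kb away.

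Eomes (chromosome 9, 118478186 to 118486132, 7.95 kb) showed the same counts as Tbx21, with 1 interval in 5 libraries and 0 in TCF1 replicate 3. Here too the single region (118489399 to 118489914) lay past the downstream end, at 3.27 kb, and overlapped Gm33460, a long non-coding RNA gene. Its fold enrichment was 7.26, 12.5 and 7.11 in the LEF1 libraries and 8.40 and 4.97 in TCF1 replicates 1 and 2, with percentiles of 45.8 to 94.7. The median summit of LEF1 and that of TCF1 were 195 bp apart, the widest gap of the 19 regions found in at least 5 libraries. Both T-box regions dropped out of every library with equal list sizes.

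Prdm1 and Zfp683 encode related zinc-finger repressors. Prdm1 (chromosome 10, 44437174 to 44528558, 91.4 kb) held 8, 10 and 6 intervals in the 3 LEF1 libraries and 8, 6 and 4 in the 3 TCF1 libraries, in replicate order as throughout. The means were 8.0 ± 2.0 and 6.0 ± 2.0 (SD, n = 3), and the groups overlapped, with p = 0.5 (exact permutation test, two-sided). With equal list sizes the counts came together at 5, 5 and 5 for LEF1 and 4, 5 and 4 for TCF1. Of the 11 regions, 4 were in all 6 libraries and 2 in all but TCF1 replicate 3.

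The strongest region of the 7 genes lay inside Prdm1, at 44447880 to 44448707. Its fold enrichment was 52.6, 82.9 and 47.9 for LEF1 and 55.2, 51.1 and 25.1 for TCF1. That put it among the strongest 1.65% to 7.95% of peaks of each list, and its summits in the 6 libraries fell within 36 bp of each other. A second, 44429011 to 44430020, lay 7.15 kb below the lower-coordinate end, which is downstream of the gene, with fold enrichments of 30.6, 49.6 and 24.1 for LEF1 and 45.1, 29.0 and 14.4 for TCF1. TCF1 replicate 3 had the lowest value at both, and the other TCF1 values fell within the LEF1 range.

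The other Prdm1 regions of all 6 libraries were weaker. At 44443777 to 44444232, inside the gene, fold enrichment was 20.0, 22.2 and 14.2 for LEF1 and 12.2, 14.4 and 8.17 for TCF1. At 44483036 to 44483584 it was 14.5, 24.2 and 12.3 for LEF1 and 24.3, 16.3 and 10.9 for TCF1. The groups overlapped at both sites. This last region lay upstream of the RefSeq start whose sequence is printed above, within the longer gene extent of the table.

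The Prdm1 start itself carried a weak region, 44458469 to 44459156, which, merged over the libraries, covers all 250 bases printed above. Fold enrichment there was 7.36, 10.6 and 5.22 for LEF1 and 11.3 and 6.64 for TCF1 replicates 1 and 2, with percentiles of 48.0 to 91.8, and it was not listed in TCF1 replicate 3. Summits of the 5 libraries fell within 13 bp of each other, at 44459024 to 44459037. All of them lay outside the 250 bases printed, which end at 44458998. Of the 17492 protein-coding genes with a start window (300 bases), 28.2% had intervals of both factors over it by the same rule, in at least 2 of 3 libraries each. Prdm1 met that rule, and Tbx21, Eomes and Zeb2 had no interval over a start in any library.

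Zfp683 (chromosome 4, 134051195 to 134058941, 7.75 kb) held 4, 5 and 4 intervals for LEF1 and 4, 4 and 0 for TCF1 (exact permutation test, two-sided, p = 0.6). The counts were alike in 5 libraries, and TCF1 replicate 3 alone had none. Its best-ranked region, 134058202 to 134058651, lay inside the gene 0.29 kb from the upper-coordinate end, with fold enrichments of 9.33, 19.4 and 7.57 for LEF1 and 12.1 and 12.5 for TCF1 replicates 1 and 2. Another region of the window (134061349 to 134062167) lay inside the neighbouring gene Crybg2. Per length, in the lists as deposited, Zfp683 was the densest of the 7 windows. It held 1.56 ± 0.208 intervals per 10 kb for LEF1 and 0.961 ± 0.832 for TCF1 (each SD, n = 3). Over the 6 libraries, 97.2% of protein-coding genes had a lower density. With equal list sizes its window kept 1, 1 and 1 intervals for LEF1 and 1, 1 and 0 for TCF1.

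**Figure D2:**
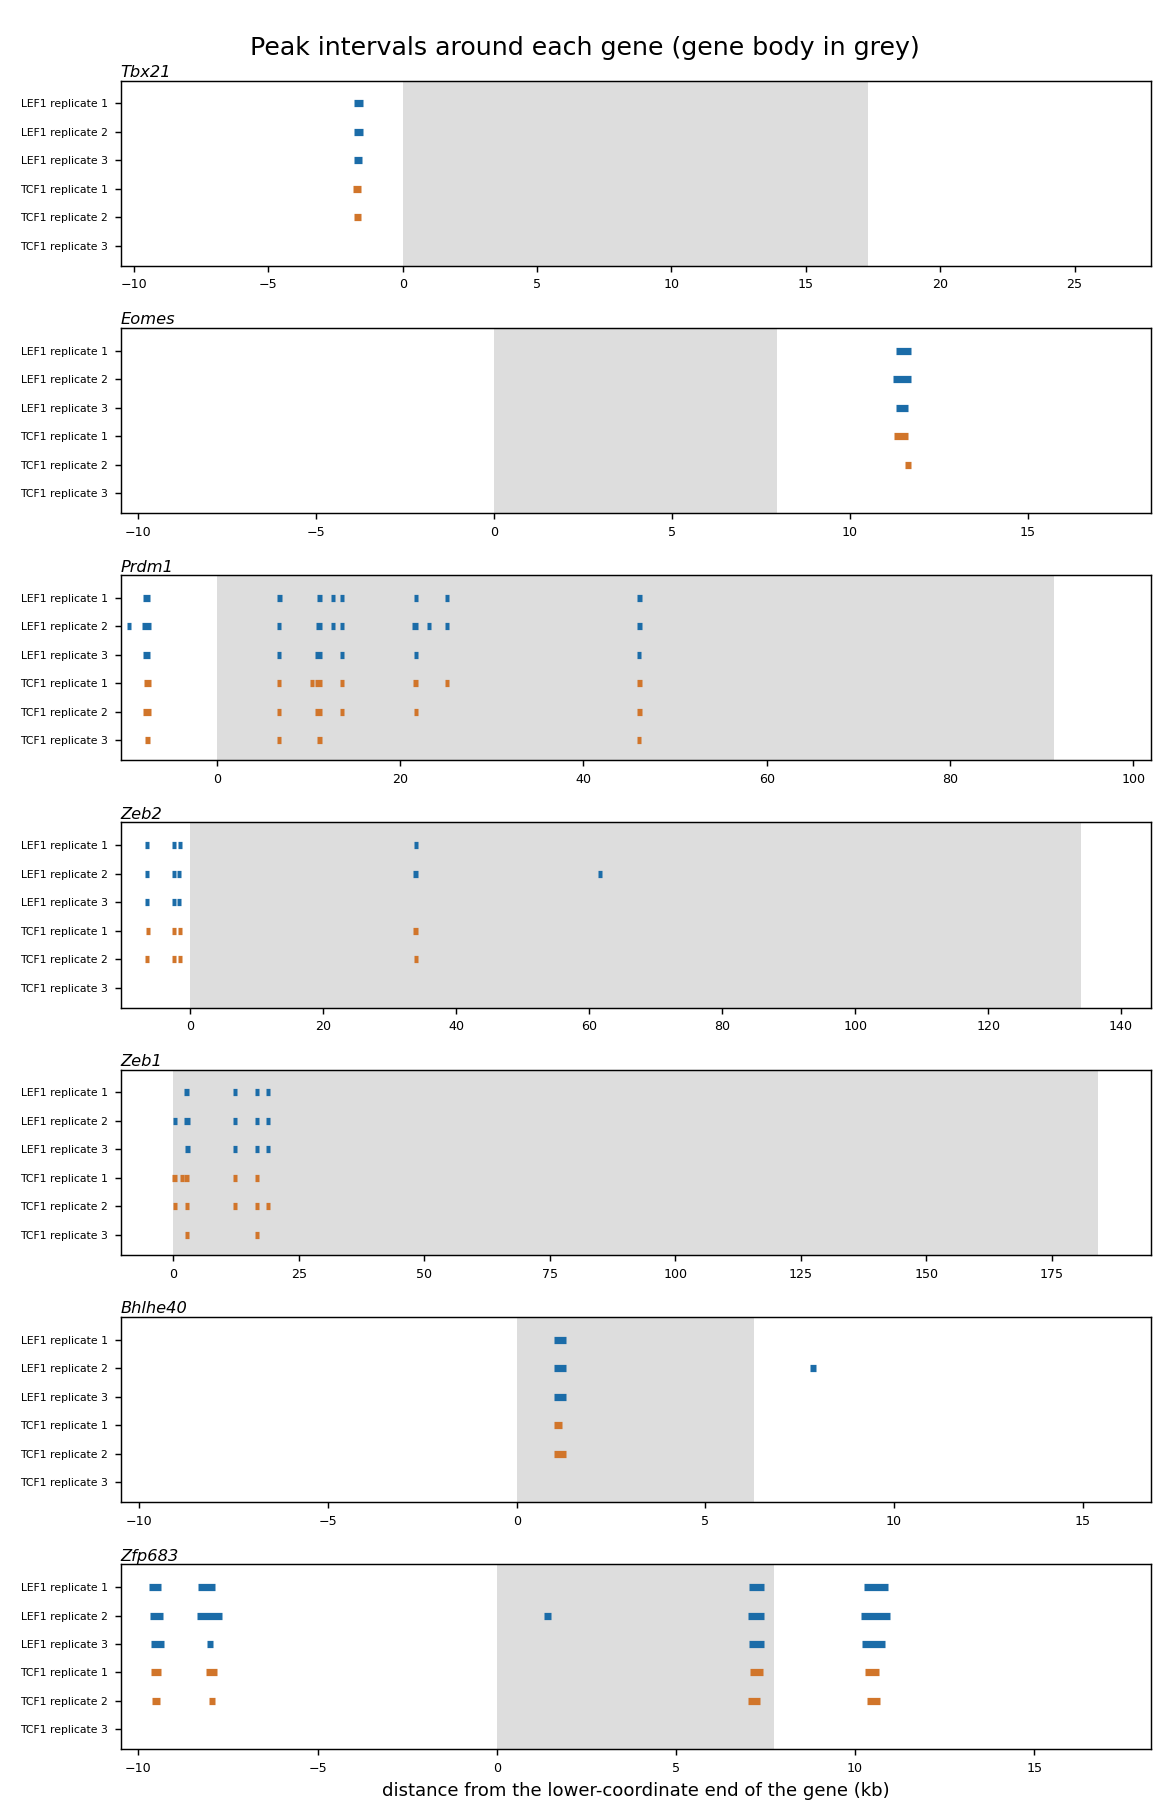
Peak intervals of each library (rows) along each gene, with the distance from the lower-coordinate end of the gene in kb on the horizontal axis and the gene body in grey. LEF1 libraries are blue, TCF1 libraries orange, and short intervals are widened to stay visible. The regions of Tbx21 and Eomes lie outside the gene body, and those inside Zeb1 end 19.0 kb from its lower-coordinate end.

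ZEB2 and ZEB1 are zinc-finger homeobox proteins that bind E-boxes and mostly repress. Zeb2 (chromosome 2, 44983512 to 45117442, 134 kb) held 4, 5 and 3 intervals for LEF1 and 4, 4 and 0 for TCF1 (exact permutation test, two-sided, p = 0.7). All libraries except TCF1 replicate 3 carried intervals, and their ranges overlapped. Of its 5 regions, 3 lay within 10 kb of the downstream end and not in the gene. The best ranked, 44981616 to 44982052, lay 1.46 kb from that end, with fold enrichments of 17.7, 25.8 and 12.5 for LEF1 and 13.9 and 12.9 for TCF1 replicates 1 and 2. A close neighbour (44980927 to 44981285) had values of 12.0 to 20.7 in the same 5 libraries. The nearest region to any of the 4 Zeb2 starts was 65.1 kb away.

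Zeb1 (chromosome 18, 5591327 to 5775468, 184 kb) held 4, 5 and 4 intervals for LEF1 and 5, 5 and 2 for TCF1, with means of 4.33 ± 0.577 and 4.0 ± 1.73 (SD, n = 3) that did not separate (p = 1.0, exact permutation test, two-sided). Without TCF1 replicate 3 the difference turned to -0.667, LEF1 minus TCF1 (exact permutation test, two-sided, p = 0.4). Per 10000 intervals listed in a library, every TCF1 library exceeded every LEF1 library at Zeb1, with a mean difference of -0.475, LEF1 minus TCF1, as was so for 4.87% of protein-coding genes (exact permutation test, two-sided, p = 0.1, unadjusted and the smallest possible). All 6 regions lay inside the gene, in the first 19.0 kb from its lower-coordinate end, and none in the remainder or in either flank.

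The strongest Zeb1 region, 5593464 to 5594721, was in all 6 libraries, 2.14 kb from that end. Fold enrichment was 34.0, 43.1 and 26.4 for LEF1 and 35.0, 28.9 and 16.9 for TCF1, with percentiles of 8.04 to 18.7. The second region of all 6 libraries (5607788 to 5608284) had 14.4, 29.9 and 12.1 for LEF1 and 21.0, 11.0 and 5.70 for TCF1, and the groups overlapped at both. Its summits fell within 8 bp of each other in the 6 libraries. A region at the lower-coordinate end of the gene (5591401 to 5591760), which also touches the long non-coding RNA gene Gm10125, was the only one of the 31 held by TCF1 (2 libraries) and not by LEF1 (1 library), where held means listed in at least 2 of 3 libraries.

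Bhlhe40 encodes a basic helix-loop-helix repressor. The gene (chromosome 6, 108660629 to 108666925, 6.30 kb) held 1, 2 and 1 intervals for LEF1 and 1, 1 and 0 for TCF1 (exact permutation test, two-sided, p = 0.6). The region of 5 libraries, 108661610 to 108661947, lay inside the gene 0.981 kb from its lower-coordinate end. Its fold enrichment was 13.9, 22.3 and 11.6 for LEF1 and 10.1 and 11.0 for TCF1 replicates 1 and 2, so each LEF1 value was above both TCF1 values. The same order held narrowly at the Tbx21 region, with a lowest LEF1 value of 8.63 and a highest TCF1 value of 8.62. How many regions over all chromosomes have this order was not determined. With equal list sizes it was listed in all 3 LEF1 libraries and in no TCF1 library. Every LEF1 count at Bhlhe40 then exceeded every TCF1 count (exact permutation test, two-sided, p = 0.1, unadjusted and the smallest possible). Counts separated in that direction, whatever their size, at 2.6% of the 8764 protein-coding genes then having an interval. By q the region stood at ranks 11002, 9347 and 11344 in the LEF1 lists and 14229 and 12171 in those of TCF1 replicates 1 and 2, so 2 of the LEF1 ranks lay close to the limit of 11423. With the 22901 strongest peaks of each library and without TCF1 replicate 3 the difference at Bhlhe40 was 0.333 (exact permutation test, two-sided, p = 1.0).

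**Figure D3:**
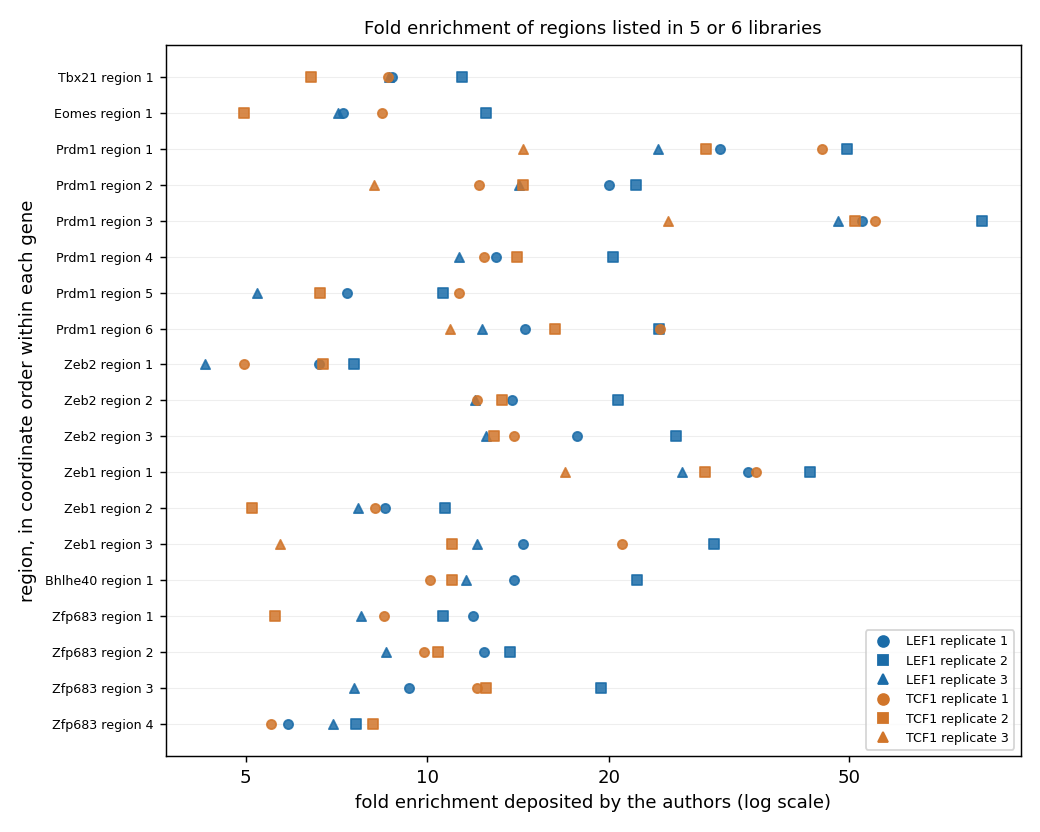
Fold enrichment deposited by the authors (horizontal axis, log scale) of the 19 regions listed in 5 or 6 libraries, numbered in coordinate order within each gene (vertical axis), with 1 point per library. The highest values are those of the third Prdm1 region, 25.1 to 82.9, and LEF1 and TCF1 points are interleaved at most regions.

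Ordered by intervals per 10 kb of window in the LEF1 libraries, the genes ran Zfp683 (1.56 ± 0.208), Prdm1 (0.718 ± 0.18), Bhlhe40 (0.507 ± 0.22), Eomes (0.358 ± 0.0), Tbx21 (0.268 ± 0.0), Zeb2 (0.26 ± 0.065) and Zeb1 (0.212 ± 0.0283, SD, n = 3 each). Zfp683 stood above Prdm1 by more than either spread, while Prdm1 and Bhlhe40, Bhlhe40 and Eomes, Tbx21 and Zeb2, and Zeb2 and Zeb1 differed by less than the larger of their spreads. An SD of 0.0 comes from 1 interval in each library and says little of precision. In the TCF1 libraries Zfp683 (0.961 ± 0.832) and Prdm1 (0.539 ± 0.18) again led, and of the neighbours in that order only Prdm1 and Bhlhe40 (0.254 ± 0.22) differed by more than the larger of their spreads (SD, n = 3 each). The median over the 7 genes and 6 libraries was 0.298 intervals per 10 kb, against 0.102 over all protein-coding genes. All these densities are those of the lists as deposited. With equal list sizes each LEF1 library kept 1 interval at Zfp683 and 5 at Prdm1, in windows of 27.7 and 111 kb. The LEF1 density of Zfp683 was then below that of Prdm1.

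Of the 31 regions, LEF1 held 23 and TCF1 21, and 20 were held by both. This was 87.0% of the LEF1 regions (95% exact binomial interval 66.4 to 97.2, counting error only), against 74.7% of LEF1 regions over all chromosomes, a value inside that interval. The share at the 7 genes rested on the rule and the libraries: it was 63.6% with equal list sizes, 30.0% if held meant all 3 libraries, and 26.1% without TCF1 replicate 1 or 2. Held by LEF1 and not by TCF1 were 3 regions, 2 at Prdm1 (44449802 to 44449959 and 44462185 to 44462437) and 1 at Zeb1 (5609942 to 5610311), where 25.3% of all LEF1 regions were. None of the 31 was in all 3 libraries of a factor and none of the other, where 3.14% of all regions were for LEF1 and 0.0183% for TCF1. The 7 regions seen in a single library, a class that held 23.1% of all regions, were in LEF1 replicate 2, the longest list (5), and TCF1 replicate 1 (2).

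Summits of both factors were compared where both marked a region. Among the 19 regions found in at least 5 libraries the median LEF1 summit and the median TCF1 summit were 0 to 195 bp apart, with a median gap of 6 bp, and 15 of the 19 lay within 50 bp, against a median gap of 14 bp and 82.3% within 50 bp among all 19141 regions in at least 5 libraries. Within a factor, summits ranged over a median of 32 bp for LEF1 and 29 bp for TCF1. At 13 of the 19 regions TCF1 replicate 3 had no summit, so TCF1 ranges there rest on fewer summits and these medians are not comparable. All 31 regions together were 147 to 1258 bp wide, with a median of 370 bp. Of the 31, 20 lay inside a gene body and 11 in the flanks, and exons and introns were not told apart.

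TCF1 replicate 3 listed 6 regions, 4 at Prdm1 and 2 at Zeb1. It had no interval at Tbx21, Eomes, Zeb2, Bhlhe40 and Zfp683, that is, at 5 of the 7 genes that had one in the other 5 libraries, where 26.5% of such protein-coding genes had none. Of the 19 regions in the other 5 libraries it lacked 13, or 68.4%, against 42.9% of 19075 such regions over all chromosomes. The regions it listed had mean rank percentiles of 3.0 to 32.8 in the other 5 lists and those it lacked 33.1 to 84.8, with no overlap. Over all chromosomes the medians were 21.7 for those listed and 57.9 for those not, and the ranges overlapped.

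**Figure D4:**
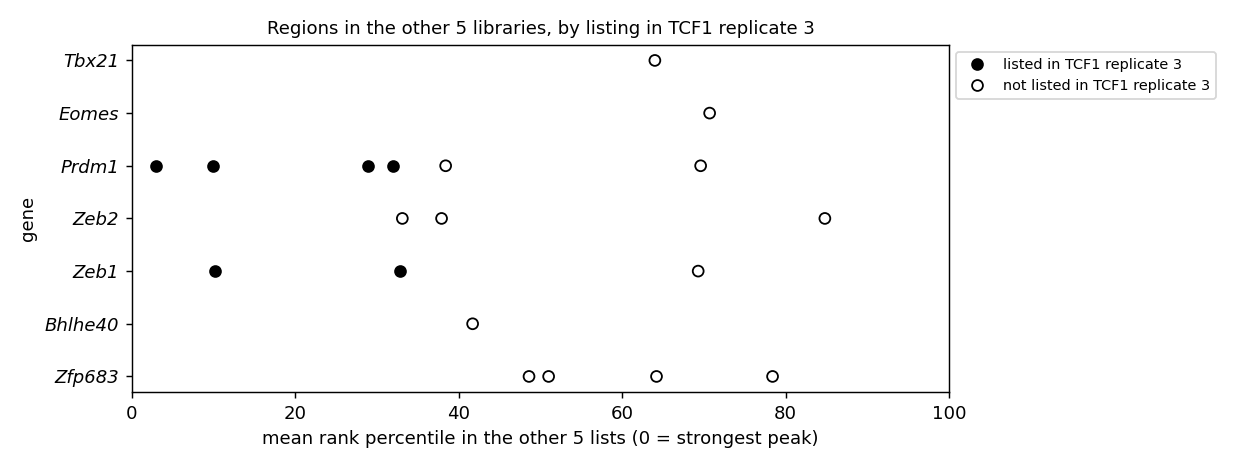
Mean rank percentile in the other 5 lists (horizontal axis, where 0 is the strongest peak) of the 19 regions found in all of them, by gene (vertical axis). Filled points were listed in TCF1 replicate 3 and open points were not: the filled ones end at 32.8 and the open ones begin at 33.1.

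With equal list sizes the LEF1 libraries held 11, 11 and 11 intervals over the 7 genes and the TCF1 libraries 8, 10 and 6. Every LEF1 library was then above every TCF1 library (11.0 ± 0.0 and 8.0 ± 2.0, SD, n = 3), a difference of 3.0. With the 22901 strongest peaks of each library and without TCF1 replicate 3 it was -0.833, LEF1 minus TCF1. With 11423 peaks each, 5 genes kept an interval in each LEF1 library, against 4, 4 and 2 in the TCF1 libraries. In the lists as deposited, the intervals per 10000 listed were 8.31, 7.70 and 8.44 for LEF1 and 9.37, 9.61 and 5.25 for TCF1. On this scale the means, 8.15 ± 0.393 and 8.08 ± 2.45 (SD, n = 3), differed by less than the spread.

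The window edge decided few regions. Just inside it lay a Prdm1 region seen in LEF1 replicate 2 alone (44427532 to 44427687, 9.49 kb from the gene) and a Zfp683 region of 5 libraries at 9.29 kb. Just outside were a Prdm1 region of 1 LEF1 library at 10.9 kb, a Zfp683 region of 3 libraries at 11.4 kb and a Tbx21 region of 2 TCF1 libraries at 11.6 kb. The nearest further region was 20.0 kb from Eomes, 21.6 kb from Bhlhe40, 22.7 kb from Zeb2 and 44.4 kb from Zeb1.

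Other regulators of effector and memory fate had intervals as well. Of 18 such genes, 17 had intervals in at least 2 of 3 libraries of each factor and 14 in all 6 libraries, while Batf3 had none. The median density was 0.845 intervals per 10 kb. In the lists as deposited every LEF1 library exceeded every TCF1 library at 2 of the 18, where 6.1% of the 13009 protein-coding genes with an interval did so. The 2 were Tox, a regulator of exhausted T cells, with 12, 18 and 13 against 9, 9 and 4 intervals, and Runx3, which promotes the CD8 lineage, with 13, 12 and 12 against 11, 9 and 5. Relative to list length Runx3 did not separate: LEF1 replicate 2 had 12 of 37646 listed intervals there and TCF1 replicate 1 had 11 of 25623. At Tox every LEF1 library stayed above every TCF1 library on that scale, as at 3.38% of the 13009 genes. In this group Bach2, a repressor that restrains effector differentiation, had the most intervals (28 to 48 in 5 libraries and 20 in TCF1 replicate 3), followed by Tox, Runx3 and Stat4 (7 to 12), which transmits IL-12 signals.

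Genes of effector function, trafficking and residency, many of them known targets of the 7 factors, formed the other list. Of 20 genes, 18 had intervals in at least 2 of 3 libraries of each factor, 15 had one in all 6 libraries and Gzmk had none. In 0 of the 20 did the groups separate in the lists as deposited, where LEF1 was above at 6.1% and TCF1 at 0.0461% of the 13009 protein-coding genes with an interval. The median density was 0.609 intervals per 10 kb. Ccr7, a chemokine receptor that directs naive cells into lymph nodes and is lost in effector cells, had 6 to 16 intervals per library. Il2rb, a receptor chain for IL-2 and IL-15, had 5 to 9 and Il12rb2, a receptor chain for IL-12, 3 to 9. Of the 18 genes of this list with an interval in the other 5 libraries, 3 had none in TCF1 replicate 3, as did 3 of the 17 such regulators.

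Genes with counts most like those of each member were sought over the 6 libraries by the summed absolute difference of interval counts. Low counts are shared by many genes: 842 protein-coding genes had exactly the counts of Tbx21 and Eomes, and those nearest in length were Zswim8 and Eci3 for Tbx21 and Trim72 and Zbtb48 for Eomes. For Bhlhe40 266 genes matched, with Vcpkmt and Tmem205 nearest in length. Rarer patterns were those of Prdm1, nearest to Coro1c (a difference of 1 interval) and Cd200r3 (2), of Zeb2, matched by Spink13 (0) and then Rnf144a (1), of Zeb1, nearest to Rnf214 and Zc3h7a (1 each), and of Zfp683, matched by Tcf20 and Pde4dip (0 each). The lists differ in length between libraries for all genes alike, and the part of list length in such likeness was not tested.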

How the data were processed

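Per the submitters' processing notes, the tools included MACS3 3.0.3, Bowtie2 2.4.4, Trim Galore 0.6.6, Picard, deepTools 3.5.1 and FastQC 0.12.1, on build GRCm38.p6. With which options and which control peaks were called is not given in the sources used here. Each library has its own list of peaks, deposited by the authors. The deposited fold enrichment is a ratio of the signal at the summit to the local background, the deposited p-value and q-value are −log10 values, and the deposited score is derived from that −log10 q. Summits were read from deposited offsets.

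From these lists, distinct intervals on chromosomes 1 to 19, X and Y were counted per gene and library (Python 3.11.15, NumPy 2.4.6, pandas 2.3.3, SciPy 1.17.1). No interval was listed more than once. Gene positions and start sequences came from RefSeq tables of the same build, without exons. Group means were compared with exact permutation tests over 20 assignments, with Benjamini-Hochberg adjustment over 13010 genes with an interval in any library. Read totals are not given in the lists, so depth is unknown, and intervals on shares cover counting error only. Settings tried were equal list sizes, a stricter q, other windows and overlap rules, scaling to list length, other definitions of a held region, each library left out, and pairing by replicate number. In simulated lists of randomly placed intervals for the comparison of LEF1 with TCF1 over 21887 genes, 198 of 200 planted differences were recovered. Each planted difference was 6 intervals in every LEF1 library and in no TCF1 library, larger than any difference at the 7 genes. Recovery of differences of the size seen here was thus not tested. The genes, lists and settings were chosen with earlier results of these data known. All 7 genes were described, each with every region in all 6 libraries (or its best-ranked region), and of the other lists the 4 genes with the most intervals and those whose groups did not overlap. A gene that this rule names in the list of effector function is counted in the list but not reported here.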

Additional observations from a re-analysis of the deposited data

How the results depend on the processing

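The difference in summed intervals over the 7 genes, 6.67, was 1.0 to 10 with 1 library left out, lowest without TCF1 replicate 3, 3.0 with equal list sizes, 3.33 in gene bodies, 12.7 with 50 kb on each side and 0.0762 per 10000 listed. With equal list sizes without TCF1 replicate 3, a setting chosen after seeing the data, it was -0.833, and Zeb2 (-1.17) and Zeb1 (-0.5) also turned. With 1 library left out Zeb1 ranged from -0.667 (without TCF1 replicate 3) to 0.833, and per 10000 listed Prdm1 (-0.388) and Zeb1 (-0.475) turned. Of 105 differences at single genes under other settings, 88 kept their direction, 5 turned and 12 became 0. The 88 include those counted by summits and with the replicate block, which equal the main differences by construction and add no support. Those counted by the middle of the interval also equalled the main differences. The share of LEF1-held regions also held by TCF1 (87.0%) was 63.6% with equal list sizes, 30.0% if held meant all 3 libraries, and 26.1% to 95% with 1 library left out, lowest without TCF1 replicate 1 or 2, when a held region had to be in TCF1 replicate 3. The 794 protein-coding genes with all LEF1 above all TCF1 libraries became 228 with equal list sizes, 436 in gene bodies, 1326 with 50 kb on each side, 440 per 10000 listed, 806 to 2272 with 1 library left out, and 416 with equal list sizes without TCF1 replicate 3. Fewer libraries loosen that rule. The reverse, all TCF1 above all LEF1 libraries, rose from 6 genes to 527 with equal list sizes and 633 per 10000 listed, above the LEF1 count in both. Counting summits changed nothing, since no interval was listed more than once. The replicate numbers are those of the titles and differ from the numbers in the library names, by which only LEF1 replicate 3 and TCF1 replicate 1 share one (correlation of deviations -0.536). Libraries with the same title number had correlations of -0.149, 0.302 and 0.556, and those with different title numbers -0.536 to 0.51. With 3 libraries per factor these values cannot show whether libraries share an animal. Since the numbers come from titles only, libraries were not taken as pairs. With the replicate block by title number the difference is 6.67 by construction, the smallest possible p was 0.25, and 1899 genes had LEF1 above TCF1 in each pair. Precision is limited by unknown read depth and 3 libraries per factor.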
